A study of Homo sapiens with 6 samples.

Results

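The 8 enzymes described here build, recycle and break down glutathione, and were taken by gene symbol from the 65988 genes counted in U87MG cells. They were GCLC, GCLM and GSS (synthesis), GSR (recycling), and GGT1, GGT5, GGCT and OPLAH (breakdown and return of the parts). U87MG, a cell line of human glioblastoma long in use, is labelled wild type and as derived from brain. Cells received vehicle (control, 3 libraries) or 2 µM RSL3 (RSL3-treated, 3 libraries) for 24 h, a time taken from the study and not from the sample labels. RSL3 is a small molecule that inhibits GPX4 and triggers ferroptosis, and the study profiled RNA to look for genes that modulate the sensitivity of cells to this form of death. A single line, a single dose and a single time were compared, and nothing in the labels says that the 3 libraries of a group came from separate cultures, so p-values measure the spread between these libraries.

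Glutathione is a tripeptide of glutamate, cysteine and glycine. Glutamate-cysteine ligase, made of the catalytic subunit GCLC and the modifier subunit GCLM, joins the first pair of amino acids and sets the pace of synthesis, and GSS adds glycine. GPX4 spends glutathione to reduce lipid hydroperoxides, which leaves the oxidized disulfide, and GSR returns this to the reduced form with NADPH. In the gamma-glutamyl cycle, GGT1 and GGT5 cut glutathione outside the cell, GGCT releases 5-oxoproline from gamma-glutamyl amino acids, and OPLAH opens 5-oxoproline to glutamate. Genes of synthesis and recycling are known targets of the transcription factor NRF2 (gene NFE2L2), which binds antioxidant response elements.

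Total counts per library ranged from 27813462 to 43306335, and 16105 genes, all 8 enzymes among them, passed the filter on low counts. The first principal component, with 39.1% of the variance, separated the groups, and control library 2, the shallowest, was the lowest on the second (18.5%). Mitochondrial transcripts took 0.840% to 1.26% of the counts. Of 10 glioma markers, VIM and CD44 were the most abundant, at 68345 ± 968 and 24712 ± 571 normalized counts in control cells (SD, n = 3), and both fell in RSL3-treated cells (log2 fold changes -0.29 and -0.39, edgeR adjusted p = 2.2e-08 and 1.2e-08), as did CHI3L1 (-0.56). GFAP, the astrocyte intermediate filament, was low at 105 ± 11.6 normalized counts in control cells and 138 ± 19.7 in RSL3-treated cells (SD, n = 3). GFAP, NES, OLIG2, PDGFRA and EGFR did not pass the test, with log2 fold changes of 0.40, 0.25, 0.13, 1.00 and 0.06, and the groups did not overlap for GFAP and OLIG2. S100B and SOX2 had 0 to 2 reads per library. The 16 markers of leukocytes, endothelium, epithelium, neurons and oligodendrocytes summed to 391 to 558 reads in control libraries and 310 to 388 in RSL3-treated libraries, and CD3E, KRT20 and MOG were among those at 0 in every library. Among them VWF and SNAP25 fell and MBP rose (log2 fold changes -1.33, -1.04 and 0.71), and their part in the results was not tested.

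Of the 8 enzymes, 4 rose in RSL3-treated cells, 1 fell and 3 did not pass the test. GCLM, GSR, GCLC and GGT1 rose, in that order of fold change, from 1.59-fold to 1.17-fold, and GSS fell slightly. Both subunits of the rate-setting ligase and the reductase thus carried higher transcript levels, whereas the next synthetic step did not. The test was edgeR's quasi-likelihood test with an adjusted p under 0.05, which called 25.6% of all genes tested, 12.9% higher and 12.7% lower, against 62.5% of the 8 enzymes. The 8 were chosen with earlier results of these data known, so their share is not independent evidence. For 4 of the 8, no control library lay within the RSL3-treated range or the reverse, as for 38.6% of all genes. The median log2 fold change was 0.19 over the 8 enzymes and -0.0044 over all genes. With 1 library left out, the number that rose was 4 each time and the number that fell was between 0 and 2, as described for GSS and GGT5. Values are normalized counts, that is, reads scaled by edgeR's TMM factors to the mean library size, so each level is relative to the whole messenger RNA pool. In bulk samples, fewer cells of a type and less RNA per cell cannot be told apart.

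**Figure D1:**
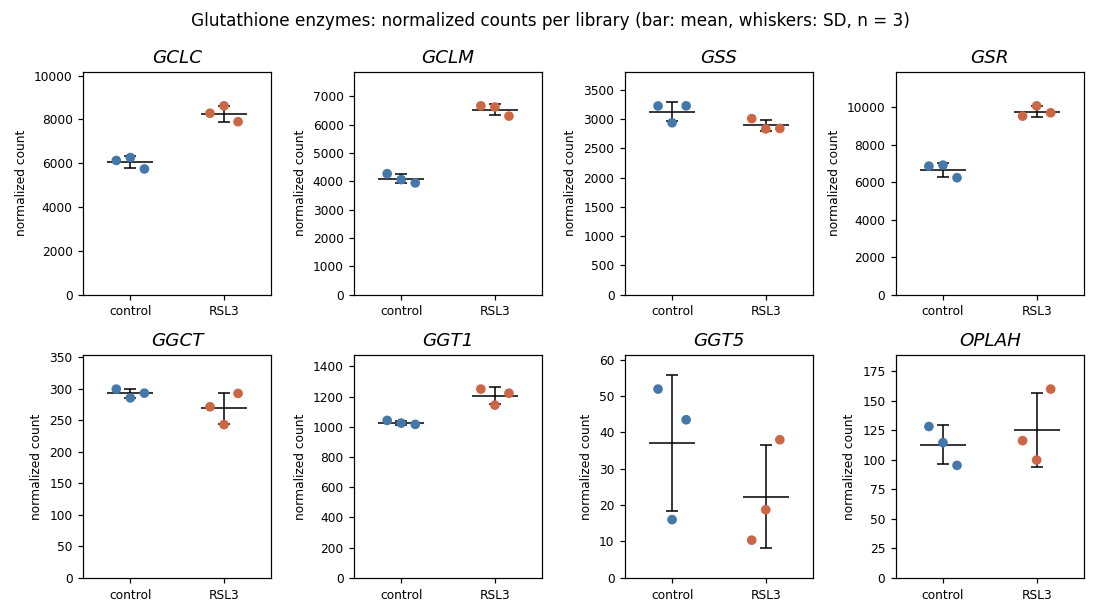
Normalized read counts of the 8 enzymes in each library, with the control libraries in blue and the RSL3-treated libraries in orange, the mean as a bar and the SD as whiskers (n = 3). GCLC, GCLM, GSR and GGT1 show no overlap between the groups, GSS overlaps slightly, and GGT5 and OPLAH spread widely within each group.

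GCLM (ENSG00000023909), the modifier subunit that raises the efficiency of the ligase, lies at chr1:93885199-93909456 of GRCh38 on the minus strand and shares no exon base with another gene of GENCODE v44. Its normalized counts were 4269, 4061 and 3944 in control libraries 1, 2 and 3. In RSL3-treated libraries 1, 2 and 3 they were 6665, 6624 and 6303. Every RSL3-treated library stood far above the highest control library. The mean was 6531 ± 199 after RSL3, against 4091 ± 165 in control cells (SD, n = 3). This gave a log2 fold change of 0.67 (standard error 0.04, 95% interval 0.60 to 0.75, edgeR adjusted p = 2.89e-11). GCLM ranked 13 by p among the 16105 genes tested and 222 by fold change among the 2082 genes called higher, so its change was moderate in size and tight between libraries. Only 5.73% of the genes tested had a log2 fold change at least as large in either direction.

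GCLC (ENSG00000001084), the catalytic subunit, which holds the active site, lies at chr6:53497341-53616970 (minus strand). Its normalized counts were 6123, 6257 and 5735 in control libraries 1, 2 and 3. They were 8281, 8619 and 7894 in the RSL3-treated libraries. Again the lowest RSL3-treated library exceeded the highest control library. RSL3-treated cells differed by a log2 fold change of 0.45 (standard error 0.04, 95% interval 0.38 to 0.53, edgeR adjusted p = 1.1e-08), from 6039 ± 271 to 8264 ± 363 normalized counts (SD, n = 3). The long noncoding RNAs GCLC-AS1 and ENSG00000231683 cover 9.68% of its exon bases. They had 3 to 8 and 2 to 15 reads per library, against 5083 to 8293 for GCLC. Reads lying in exons of both genes are assigned to neither. Counts of overlapping genes, here and below, therefore do not show how many reads were lost.

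The 5′ sequences of both ligase subunits are shown because the subunits rose together and both are known NRF2 targets. RefSeq windows on GRCh38.p14 ran from 250 bases before the transcription start to 50 bases after it. Windows of GSS, GSR, GGCT, GGT5 and OPLAH were not examined, so the search says nothing about GSR, which also rose. The windows examined were those of 3 of the 8 enzymes (GCLC, GCLM and GGT1). They were searched on both strands for the core of the antioxidant response element, TGACNNNGC, and for the AP-1 site, TGANTCA, which can overlap it. Capitals mark a match, and both sequences read 5′ to 3′ in the direction of the transcript. The GCLM window is chr1:93909381-93909680 and the GCLC window is chr6:53545052-53545351, both on the minus strand.
GCLM: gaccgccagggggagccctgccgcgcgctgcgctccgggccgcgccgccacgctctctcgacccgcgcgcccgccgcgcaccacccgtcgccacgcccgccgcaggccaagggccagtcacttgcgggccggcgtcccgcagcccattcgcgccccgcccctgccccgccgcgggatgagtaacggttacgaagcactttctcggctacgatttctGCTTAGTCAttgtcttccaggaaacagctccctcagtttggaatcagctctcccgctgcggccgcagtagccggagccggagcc
GCLC: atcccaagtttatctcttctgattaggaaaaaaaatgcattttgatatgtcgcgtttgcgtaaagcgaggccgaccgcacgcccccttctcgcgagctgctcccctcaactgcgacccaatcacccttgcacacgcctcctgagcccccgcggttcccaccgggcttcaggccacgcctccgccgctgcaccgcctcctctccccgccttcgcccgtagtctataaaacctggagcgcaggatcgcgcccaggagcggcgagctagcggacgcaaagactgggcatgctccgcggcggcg

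The GCLM window held 1 match to the element core, on the strand opposite to the transcript, from position -34 to -26 before the start. The GCLC window held none, which says only that these letters are absent from this stretch. Of the GGT1 windows, at chr22:24583500-24583799 and chr22:24602943-24603242 on the plus strand, the second held 1 match, from -29 to -21. RefSeq starts can differ from GENCODE v44 spans. The first GGT1 window lies before the GENCODE start of the gene, at 24594811, and the second GGT1 window and the GCLC window lie inside their genes. Which start these cells used was not tested. No AP-1 match was found in any of these windows. Among all 35116 windows of the same length, 13.3% held the element core and 7.71% the AP-1 letters, so a match by itself is no rarity. By base composition the GCLM window was 71.7% and the GCLC window 62.7% G or C.

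The balance between the subunits was compared within libraries. The number of GCLM reads per GCLC read, a value that needs no scaling between libraries, was 0.697, 0.649 and 0.688 in control libraries 1, 2 and 3. It was 0.805, 0.769 and 0.798 in the RSL3-treated libraries. All RSL3-treated ratios lay above all control ratios, and their geometric mean was 1.17-fold higher (difference 0.22 on the log2 scale). The exact two-sided permutation test over the 6 libraries gave p = 0.1, the smallest p that 3 against 3 libraries allow, and adjusted p = 0.1 over the 3 ratios computed. The permutation test therefore cannot reach 0.05 for a ratio with this number of libraries.

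GSS (ENSG00000100983), which completes the tripeptide, lies at chr20:34928432-34956027 (minus strand). Its normalized counts were 3226, 2938 and 3228 in control libraries 1, 2 and 3. They were 3009, 2833 and 2842 in the RSL3-treated libraries. Control library 2 lay below RSL3-treated library 1, so the groups overlapped. The log2 fold change was -0.12 (standard error 0.04, 95% interval -0.20 to -0.03, edgeR adjusted p = 0.0428). The call was lost in DESeq2 (adjusted p = 0.0587) and in edgeR without control library 1, control library 3, RSL3-treated library 2 or RSL3-treated library 3 (adjusted p between 0.128 and 0.172). MYH7B, on the other strand, covers 2.24% of its exon bases and had 16 to 40 reads per library.

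Set against GSS in the same library, both ligase subunits stood higher in each RSL3-treated library than in any control library. GCLC reads per GSS read were 1.90, 2.13 and 1.78 in control libraries 1, 2 and 3. They were 2.75, 3.04 and 2.78 in the RSL3-treated libraries, which is 1.48-fold higher on average. GCLM reads per GSS read went from 1.32, 1.38 and 1.22 to 2.21, 2.34 and 2.22, which is 1.73-fold higher. Neither ratio overlapped between the groups, and both had an exact permutation p = 0.1, again the smallest possible.

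**Figure D2:**
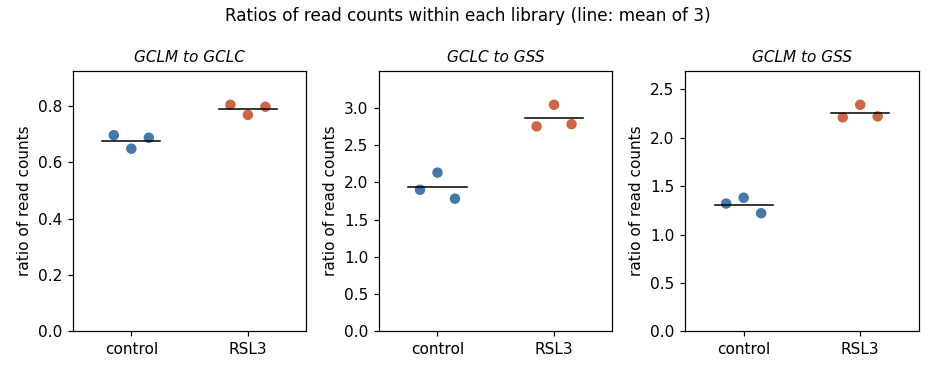
Ratios of read counts within each library for GCLM to GCLC, GCLC to GSS and GCLM to GSS, with a line at the mean of the 3 libraries of a group (blue, control, orange, RSL3-treated). The RSL3-treated libraries lie above the control libraries in all 3 ratios, and the separation is widest for GCLM to GSS.

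GSR (ENSG00000104687), glutathione reductase, lies at chr8:30678066-30727846 (minus strand) and shares no exon base with another gene. Its normalized counts were 6859, 6913 and 6241 in control libraries 1, 2 and 3. They were 9531, 10079.9 and 9710 in the RSL3-treated libraries. The groups were well apart, with control library 3 the lowest of all. The log2 fold change was 0.55 (standard error 0.04, 95% interval 0.47 to 0.63, edgeR adjusted p = 6.46e-10), from 6671 ± 374 to 9774 ± 280 normalized counts (SD, n = 3).

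Among the breakdown enzymes, GGT1 alone passed the test. GGT1 (ENSG00000100031), the membrane enzyme that starts extracellular glutathione breakdown, lies at chr22:24594811-24629005 (plus strand). Its normalized counts were 1042, 1024 and 1016 in control libraries 1, 2 and 3. They were 1249, 1143 and 1222 in the RSL3-treated libraries. The control libraries agreed within a narrow range and lay below every RSL3-treated library. Its log2 fold change was 0.23 (standard error 0.05, 95% interval 0.12 to 0.34, edgeR adjusted p = 0.00239). GGT1 has related copies in the genome, some near-identical, so its count is uncertain where reads fit several of them. The copies GGT2P, GGT3P and GGT8P had 2 to 15, 3 to 10 and 114 to 189 reads per library, against 832 to 1325 for GGT1. Mean normalized counts of these copies were 6.74, 4.56 and 141 in control cells. In RSL3-treated cells they were 9.03, 7.10 and 170. The reads of GGT2P and GGT3P were few and overlapped between the groups. Other copies with few reads went either way, GGTLC1 from 5.06 to 7.07, GGTLC2 from 2.13 to 0 and GGTLC5P from 5.18 to 1.48. A further annotated gene, ENSG00000286070, covers 56.5% of the exon bases of GGT1 in GENCODE v44 but is no identifier of the deposited counts.

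GGCT (ENSG00000006625), gamma-glutamylcyclotransferase, lies at chr7:30496621-30504841 (minus strand). Normalized counts of GGCT were 299.6, 285.6 and 293.2 in control libraries 1, 2 and 3. They were 271.5, 243.2 and 292.7 in the RSL3-treated libraries. RSL3-treated library 3 fell inside the control range. The log2 fold change was -0.12 (95% interval -0.34 to 0.09, edgeR adjusted p = 0.435). ENSG00000281039, on the same strand, covers 27.7% of its exon bases and had 0 reads in every library. A read lying in exons of both genes is assigned to neither in this kind of counting.

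OPLAH (ENSG00000178814), 5-oxoprolinase, lies at chr8:144051266-144063965 (minus strand). OPLAH had normalized counts of 128.2, 114.5 and 95.3 in control libraries 1, 2 and 3. They were 116.2, 99.8 and 159.9 in the RSL3-treated libraries. The groups overlapped, with 1 high RSL3-treated library. Its log2 fold change was 0.15 (95% interval -0.22 to 0.53, edgeR adjusted p = 0.6), and without RSL3-treated library 3 it was -0.06, so it has no stable direction. SMPD5 covers 4.66% of its exon bases and had 0 to 2 reads per library.

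GGT5 (ENSG00000099998), a relative of GGT1 known for cleaving leukotriene C4 as well as glutathione, lies at chr22:24219654-24245108 (minus strand). It was the least abundant of the 8, with 66, 13 and 47 reads in control libraries 1, 2 and 3. There were 9, 18 and 38 reads in the RSL3-treated libraries. Both groups varied widely within themselves. The log2 fold change was -0.75 (95% interval -1.63 to 0.13, edgeR adjusted p = 0.212). It reached -1.07 (adjusted p = 0.0457) without control library 2 and -1.37 (adjusted p = 0.0346) without RSL3-treated library 3, so single libraries decided whether it passed.

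Per length of merged exons, the enzymes spanned a wide range of levels. In control cells GSR was the most abundant, at 54.3 ± 3.04 RPKM (reads per kb of exon, scaled by TMM-adjusted library size, SD, n = 3). GCLM followed at 22.1 ± 0.890, GCLC at 20.5 ± 0.921 and GSS at 14.9 ± 0.792. GGT1 and GGCT were lower, at 6.88 ± 0.0900 and 5.38 ± 0.129. OPLAH at 0.743 ± 0.109 and GGT5 at 0.181 ± 0.0914 closed the order. The order was the same in RSL3-treated cells, where GSR reached 79.5 ± 2.28, GCLM 35.3 ± 1.07 and GCLC 28.1 ± 1.23 (SD, n = 3). No neighbours in the order overlapped in either group, but in control cells the lowest GCLM library (21.30) was barely above the highest GCLC library (21.28). The lengths, 5426 bases for GCLM and 8618 for GCLC, merge all annotated exons of GENCODE v44, so rare transcripts lower these values. Bases shared with another counted gene stay in the length, though reads lying there are assigned to neither gene. Such bases make up 9.68% for GCLC and 27.7% for GGCT. The order of GCLM and GCLC, and of GGT1 and GGCT, may therefore depend on the length used, which was not tested.

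**Figure D3:**
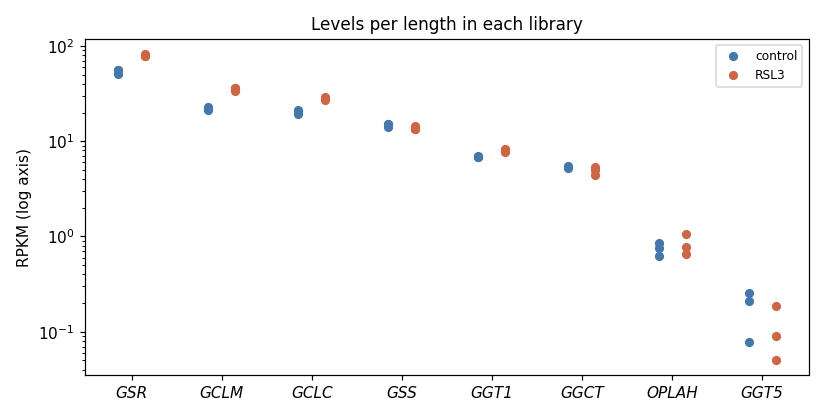
RPKM, that is, reads per kb of merged exon scaled by library size, for the 8 enzymes in each library, on a log axis, ordered by the control mean (blue, control, orange, RSL3-treated). Levels run from about 54.3 for GSR to 0.181 for GGT5 in control cells, and the order is the same after RSL3.

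The genes whose library pattern was most like that of a member were found by the root mean square difference of log2 normalized counts over the 6 libraries, among 11233 genes with a symbol and a mean of at least 100 normalized counts. For GCLM they were GLA (difference 0.013), SLCO2B1 (0.026) and NR0B1 (0.036), which had log2 fold changes of 0.67, 0.70 and 0.62. For GCLC they were BEND7, APCDD1L-DT and UBE2H, at differences of 0.022, 0.022 and 0.023. For GSR they were PPIF, SPRY4 and GRIK5, at 0.041, 0.042 and 0.043. For GGT1 they were ZNF778, FBXW4 and CSNK1E, at 0.016, 0.018 and 0.018. For GSS they were SNRPA, MYL12B and ZNRF2, at 0.014, 0.021 and 0.022, with log2 fold changes between -0.12 and -0.10. GGCT was closest to VSIG10L (0.019), WDFY2 (0.029) and FBXO45 (0.032), and OPLAH to STIL (0.070), with FGF7P6 at 0.11. GGT5 had no close match among these genes, the nearest being LUM, DENND1B and BDKRB1 at 0.55 to 0.56. Its own means, 37.1 normalized counts in control cells and 22.3 in RSL3-treated cells, lie below the 100 required of the candidates. How far low counts widen its differences was not tested.

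Further lists of glutathione-related genes, 6 in all, were read the same way, and of their 98 genes 87 were tested, 33 rose and 16 fell, which is 56.3% called against 25.6% of all genes. Of the 33, 15 belong to the NRF2 list described last, which was chosen knowing that such genes had risen. The other lists were also chosen with earlier results of these data known, so none of these shares is independent evidence. Of 14 relatives of the gamma-glutamyl cycle, 7 were tested, 1 rose and 1 fell (28.6% called, near the share of all genes), with a median log2 fold change of 0.06. CHAC1, which degrades glutathione inside the cell, rose from 2804, 2584 and 2565 to 3508, 3345 and 3241 normalized counts in libraries 1, 2 and 3 of each group. This was a log2 fold change of 0.34 (edgeR adjusted p = 2.41e-06), with no overlap. LAP3, a leucine aminopeptidase that can cut cysteinylglycine, fell (log2 fold change -0.21, edgeR adjusted p = 0.000364). CNDP2, which also splits that dipeptide, had a log2 fold change of 0.06 and CHAC2, a slower relative of CHAC1, one of 0.22, with edgeR adjusted p = 0.184 and 0.455. GGT7, of the same family as GGT1 and GGT5, had 1996 ± 135 and 1999 ± 76.3 normalized counts (SD, n = 3), a log2 fold change of 0.00 with a 95% interval from -0.10 to 0.10. It was picked out after its values were seen.

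Of 18 genes of cysteine, glutamate and glycine supply, 17 were tested, 6 rose and 4 fell (58.8% called), with a median log2 fold change of -0.01. SLC7A11 and SLC3A2, the chains of the cystine and glutamate exchanger, rose with log2 fold changes of 0.54 and 0.48, between those of GCLC and GCLM. SLC7A11 shares 8.97% of its exon bases with other genes. SLC1A3, a glutamate transporter of astrocytes, fell from 661 ± 32.5 to 450 ± 5.82 normalized counts (SD, n = 3, log2 fold change -0.56, edgeR adjusted p = 7.06e-06). PHGDH, the entry to serine and then glycine synthesis, fell by 0.19 on the log2 scale (edgeR adjusted p = 4.52e-05).

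Of 15 genes of NADPH supply, on which GSR depends, 14 were tested, 4 rose and 2 fell (42.9% called), with a median log2 fold change of 0.02. PGD and TALDO1 of the pentose phosphate pathway rose, with log2 fold changes of 0.26 and 0.15 (edgeR adjusted p = 6.12e-07 and 0.00229), beside 0.55 for GSR. IDH2, the mitochondrial isocitrate dehydrogenase, fell from 533 ± 46.0 to 359 ± 30.1 normalized counts (SD, n = 3, log2 fold change -0.57, edgeR adjusted p = 5.78e-05). Without control library 3, 1 gene of the list rather than 2 was called lower.

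Transporters that carry glutathione or its conjugates were tested in full, and 3 of 7 rose and 2 fell (71.4% called). ABCC2 and ABCC3, export pumps of the multidrug resistance protein family, rose by log2 fold changes of 0.40 and 0.47 (edgeR adjusted p = 1.42e-08 and 3.42e-08). ABCC1, of the same family, rose at a much lower level, from 206 ± 5.61 to 274 ± 4.80 normalized counts (SD, n = 3, edgeR adjusted p = 0.00568). ABCC5 fell, with a log2 fold change of -0.27 (edgeR adjusted p = 0.00403). The median over the 7 was 0.01, and the number called lower was 1 without control library 3 or RSL3-treated library 3 and 3 without control library 2 or RSL3-treated library 2.

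Among enzymes that use glutathione, 24 of 26 were tested, 7 fell and 4 rose (45.8% called), with a median log2 fold change of -0.06. The number called higher was 2 without control library 2 or control library 3 and 6 without control library 1. The smallest p-values belonged to genes that fell. GPX1 and GPX8, like GPX4 members of the glutathione peroxidase family, had log2 fold changes of -0.68 and -0.35. GPX4 itself, the target of RSL3, had -0.42, and the microsomal transferase MGST3 had -0.37. All 4 had edgeR adjusted p at or below 1.84e-06, and GPX1 shares 39.9% of its exon bases with other genes.

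Of 18 regulators and known targets of NRF2, all of them tested, 15 rose and 0 fell by edgeR (83.3% called), with a median log2 fold change of 0.33. These reference genes were chosen knowing that NRF2 targets had risen in these libraries, so the count is not independent evidence. OSGIN1, HMOX1, SRXN1 and TXNRD1 led the list by p, with log2 fold changes of 0.96, 0.95, 0.93 and 0.55, beside 0.67 for GCLM. Of the exon bases of SRXN1, 90.7% are shared with other genes, as are 8.22% of those of OSGIN1 and 38.4% of those of NFE2L2. NFE2L2 did not pass the test, with 7485 ± 284 and 7554 ± 172 normalized counts (SD, n = 3), a log2 fold change of 0.01 and a 95% interval from -0.06 to 0.08. KEAP1, which marks the NRF2 protein for degradation, rose by 0.23 on the log2 scale.

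**Figure D4:**
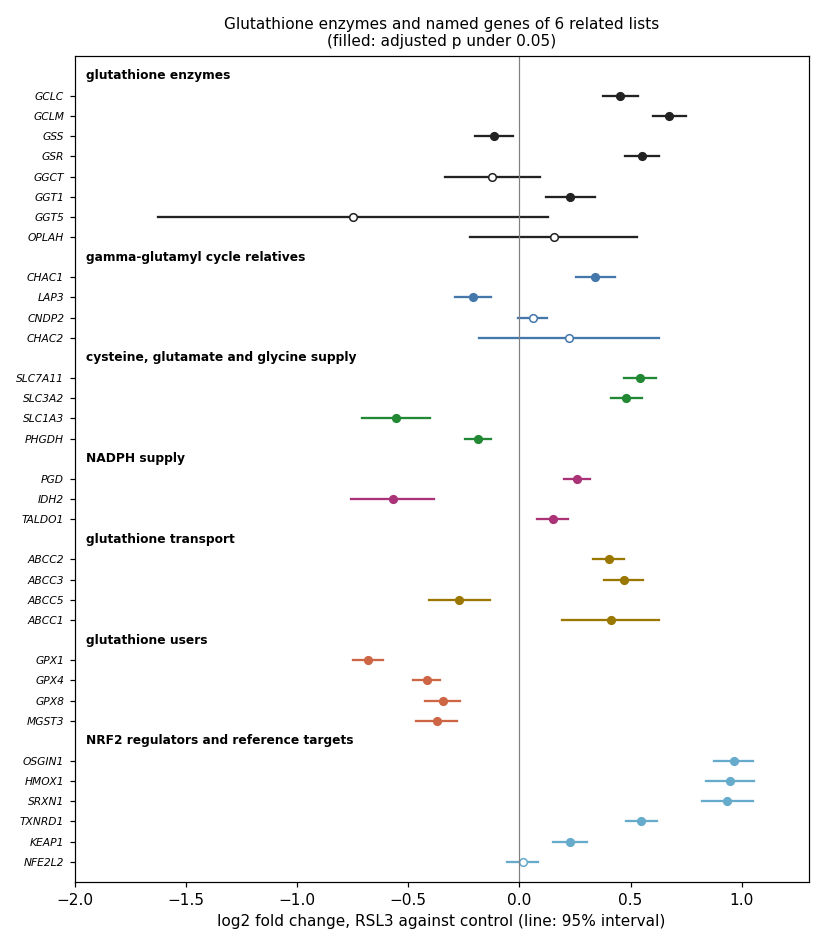
Log2 fold changes of RSL3-treated against control cells for the 8 enzymes and for named genes of 6 related lists, with 95% intervals from edgeR and filled points where the adjusted p was under 0.05. GCLM, GSR and GCLC sit at 0.67, 0.55 and 0.45, near SLC7A11 at 0.54, while the 4 named users of glutathione lie between -0.68 and -0.35.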

How the data were processed

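Poly(A) RNA of U87MG cells was sequenced in read pairs. Per the labels and the study's methods, the authors trimmed reads with Trimmomatic 0.36 and Fastp, used HISAT2 for alignment against GRCh38.p4, and counted exonic reads per gene, ignoring strand, in HTSeq-count 0.6.1p1. The annotation release is not given in the sources used here. The deposited values are raw counts per Ensembl gene. Symbols were matched for 41164 of 65988 identifiers, and coordinates, exon lengths and overlaps came from GENCODE v44 on GRCh38. The 8 enzymes and the other lists were chosen with earlier results of these data known.

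The main test used edgeR 4.0.16 under R 4.3.3. Genes passing filterByExpr (minimum count 10) were scaled by TMM and tested by the quasi-likelihood F test, two-sided and without covariates, with Benjamini-Hochberg adjustment over 16105 genes and a threshold of 0.05. The study's tool, DESeq2 (1.42.0 here), and surrogate variables (sva 3.50.0), whose number it does not give, served as alternatives, with other scalings, filters, a replicate block and each library left out. Ratios were tested by exact permutation. Genes named beside the 8 enzymes were CHAC1, SLC7A11, SLC3A2, NFE2L2, KEAP1 and the 4 with the smallest p in each list, and the 3 most alike in pattern to each enzyme, except items that are not reported here. The fit was tested on simulated data. Promoter sequences were taken from RefSeq on GRCh38.p14.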

Additional observations from a re-analysis of the deposited data

How the results depend on the processing

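The 4 enzymes that rose kept direction and call in every setting run (log2 fold changes 0.42 to 0.49 for GCLC, 0.65 to 0.71 for GCLM, 0.51 to 0.58 for GSR and 0.20 to 0.27 for GGT1, each library left out in turn included). The number of enzymes called lower, 1 in the main test, was 0 in DESeq2 with 0, 1 or 2 surrogate variables and between 0 and 2 with a library left out. The cause was not tested. The call of GSS was lost in the 3 DESeq2 fits, and GGT5 (adjusted p = 0.212 in the main test) was called only without control library 2 or RSL3-treated library 3. GSS had an adjusted p of 0.0587, 0.0726 and 0.163 in those DESeq2 fits. The log2 fold change of OPLAH lay between -0.0629 (without RSL3-treated library 3) and 0.296 with a library left out. In DESeq2 with 2 surrogate variables, 1 gene each of NADPH supply and glutathione transport was called lower and 1 user of glutathione higher. Over all genes, 2082 were called higher and 2041 lower in edgeR, against 1229 and 1224 in DESeq2 with 2 surrogate variables. GGT5 could not be fitted with at least 10 counts in every library, and its depth of at most 66 reads per library limits it. Deviations of same-numbered libraries correlated only weakly (0.0222, 0.0273 and 0.0745), against -0.0514 to 0.0242 for differently numbered ones. Of the 6 libraries, 5 correlated best with their own number, and the main test treated all libraries as unpaired. With the replicate number as a block, 2350 genes were called higher and 2283 lower, with 4 enzymes higher and 1 lower, and the log2 fold change of GSS was -0.114 (adjusted p = 0.0164).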
